A study of Capra hircus with 11 samples.

Results

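Mammals carry a pair of paralogs of the miR-17-92 cluster, groups of miRNAs that lie next to each other and are cut from shared primary transcripts. They are called the miR-106b cluster and the miR-106a cluster here. Members were taken by name, in any arm: bta-miR-106b, bta-miR-93 and bta-miR-25 for the first, and bta-miR-106a, bta-miR-18b, bta-miR-20b and bta-miR-363 for the second. The prefix bta marks the bovine names under which goat reads were counted, and it is left out below. All 7 were listed among the 637 miRNAs of the series. The samples were omental adipose tissue, the fat of the fold that hangs from the stomach, from 11 lactating Alpine goats (Capra hircus), 1 small RNA library per goat. All goats were at peak lactation, 48 ± 2 days after kidding, and all had eaten orchardgrass hay with concentrate (35% forage, 65% concentrate) for 2 weeks. Control goats (n = 5) then had that diet freely available until slaughter, and feed-deprived goats (n = 6) received no feed for the last 48 h. The question is how far a brief total fast changes the miRNAs of this fat depot at peak lactation.

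A miRNA recognises its targets mainly through its seed, the bases near its 5′ end. miR-17, miR-20a, miR-20b, miR-93, miR-106a and miR-106b share a seed and are known to repress inhibitors of the cell cycle such as CDKN1A. miR-25, miR-32, miR-92a, miR-92b and miR-363 share another seed, for which the pro-apoptotic BCL2L11 is a studied target, and miR-18a and miR-18b share their own. In mammals miR-106b, miR-93 and miR-25 lie in an intron of MCM7, a subunit of the DNA replication helicase that is transcribed in dividing cells, whereas the miR-106a cluster is X-linked and best known from embryonic and lymphoid cells. In mice, miR-93 has been linked to restraint of fat cell formation. In the goat gene table of RefSeq (assembly ARS1.2) all 7 members had an entry, and the 3 genes MIR106B, MIR93 and MIR25 fell inside the span of MCM7. MIR106A, MIR18B, MIR20B and MIR363 stood on sequence that the table does not place on a chromosome, in the order MIR363, MIR92B, MIR20B, MIR18B, MIR106A. The miR-17-92 genes of the table were on another chromosome than MCM7.

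The files held 16974441 to 25389788 miRNA reads per library, and feed-deprived replicate 1 was the deepest. The deposited values are reads divided by 1 scaling factor per library and are called normalised reads here. The fat tissue list (miR-103, miR-107, miR-143 and miR-26a) summed to 4898500 to 10876600 normalised reads per library, and no marker of that list was at 0. Its highest member by mean was miR-143 and its lowest miR-107, at 3196 to 5311. Log2 fold changes were positive for 2 of these 4, and 0 had an unadjusted p under 0.05 in limma. The 9 leukocyte miRNAs summed to 51904 to 77262 normalised reads in controls and 66271 to 100864 after feed deprivation, and 1 of the 9 passed the limma test used for all miRNAs, which 0.833% of them passed. An unadjusted p under 0.05 was found for 4 of the 9, against 11.7% of all tested miRNAs, and all 9 log2 fold changes were positive with the deposited scaling. The 3 red blood cell miRNAs summed to 116344 to 331505 and 131837 to 348041, and the 6 fibroblast miRNAs to 3494950 to 4668140 and 2492410 to 4968680. In each of these 2 lists 0 passed and 1 had an unadjusted p under 0.05 in limma. Log2 fold changes were positive for 3 of the 3 red blood cell miRNAs and 0 of the 6 fibroblast miRNAs. In the fibroblast sum 4 feed-deprived goats lay below every control and 1 above. Of the 3 endothelial miRNAs (miR-126-5p, miR-126-3p and miR-218) 0 had a positive log2 fold change and 0 an unadjusted p under 0.05 in limma. All lists overlapped between the groups. The part of these lists in the values of the clusters was not tested. In bulk tissue, fewer cells of a type and less of a miRNA per cell cannot be told apart.

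The 3 members of the miR-106b cluster were abundant and the 4 of the miR-106a cluster scarce in every goat. The first took 0.198% ± 0.0196 of miRNA reads (SD, n = 5 controls) and 0.223% ± 0.0442 (SD, n = 6 feed-deprived goats). The second took 5.4e-04% ± 1.6e-04 and 8.2e-04% ± 3.4e-04. Within a library, where scaling cancels, the summed reads of the miR-106b cluster were 172 to 605 times those of the miR-106a cluster, with a median of 321. This ratio depends on leaving out miR-92b: the goat gene table has MIR92B among the genes of the miR-106a cluster, and whether the miR-92b reads come from that locus is not known. With miR-92b counted in, the ratio was 2.26 to 4.38, with a median of 3.12. Both ratios also leave out miR-19b and miR-92a, of which the miR-106a cluster of other mammals encodes copies. miR-92a alone had 26445 to 52620 normalised reads per library, and how many come from this cluster is not known. Ranked by mean normalised reads among the 637 miRNAs, miR-25 stood at 46, miR-93 at 63 and miR-106b at 114, against 234 for miR-363, 315 for miR-20b, 336 for miR-106a and 374 for miR-18b. Mature miRNAs are of nearly equal length, so no length scaling was applied, but adapter ligation favours some sequences and these ranks are not molar amounts.

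**Figure D1:**
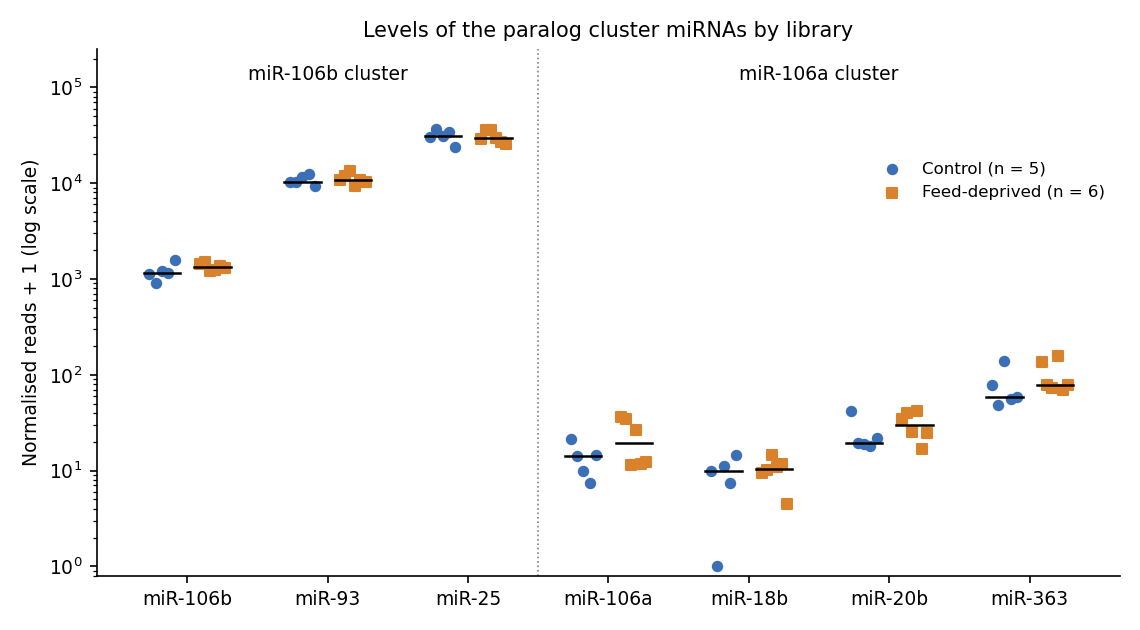
Normalised reads plus 1 (log axis) of the 7 miRNAs in every library, with circles for controls, squares for feed-deprived goats and bars for group medians. The miRNAs of the miR-106b cluster lie at 898 normalised reads or more and those of the miR-106a cluster at 155.6 or less, and for each miRNA the groups overlap; the lowest circle is miR-18b in control replicate 2, with 0 reads.

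The test set the 2 groups against each other over all 360 miRNAs with enough reads, by limma on log2(normalised reads + 1) with Benjamini-Hochberg adjustment. In it 0.833% of miRNAs passed at an adjusted p under 0.05. Of the 7 members 6 were tested, miR-18b having too few reads, and 0 passed; 0 had an unadjusted p under 0.05 in limma, and edgeR and DESeq2 on the recovered reads also called 0. The groups overlapped for all 7, where 1.67% of the tested miRNAs had groups that did not. Of the 6 tested members 5 had positive log2 fold changes, with a median of 0.27, beside 50.8% positive and a median of 0.00397 over all tested miRNAs. The count was 4 with upper-quartile factors and 6 with library totals, scalings that also moved the median of all miRNAs, to -0.17 and 0.16. It was also 4 of 6 without feed-deprived replicate 3 or without control replicate 5, and 6 of 6 without feed-deprived replicate 5 or 6.

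bta-miR-25, which shares its seed with miR-92a, was the most abundant member. Controls held 30445, 37041, 31216, 33888 and 23638 normalised reads (replicates 1 to 5), and feed-deprived goats ran from 25634 through a median of 29298 to 36263. Both the highest and the lowest goat were controls, replicates 2 and 5, and the feed-deprived range lay inside the control range. The means were 31246 ± 4977 (SD, n = 5 controls) and 30540 ± 4400 (SD, n = 6 feed-deprived goats), a log2 fold change of -0.03 with a standard error of 0.145 (adjusted p = 0.984 in limma). The 95% interval of the difference ran from 0.789-fold to 1.22-fold.

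bta-miR-93, of the miR-17 seed family, had group means equally close to each other. Controls held 10314, 10334, 11567, 12593 and 9439 normalised reads, and feed-deprived goats ran from 9270 through 10712 to 13390. One end of the whole range belonged to feed-deprived replicate 4 and the other to feed-deprived replicate 3. The means were 10850 ± 1234 (SD, n = 5 controls) and 11054 ± 1431 (SD, n = 6 feed-deprived goats), a log2 fold change of 0.02 with a standard error of 0.132 (adjusted p = 0.984 in limma), with an interval of 0.836-fold to 1.24-fold. miR-93 varied little between goats: its coefficient of variation was 11.4% in controls and 12.95% after feed deprivation, where the median of tested miRNAs was 29.4% and 27.9%. For miR-25 it was 15.9% and 14.4%, and for the abundant miR-92a 13.0% and 23.7%. The tested miRNAs include scarce ones, where counting error adds to the spread, and miRNAs of like abundance were not compared as a set.

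bta-miR-106b, which has the same seed as miR-93, held 1122, 898, 1212, 1150 and 1570 normalised reads in controls, and ran from 1215 through 1331 to 1512 after feed deprivation. All 6 feed-deprived goats lay between control replicates 3 and 5. The means were 1190 ± 243 (SD, n = 5 controls) and 1343 ± 118 (SD, n = 6 feed-deprived goats), a log2 fold change of 0.19 with a standard error of 0.165 (adjusted p = 0.771 in limma), with an interval of 0.894-fold to 1.46-fold. It was 0.097 without control replicate 2 and 0.30 without control replicate 5. Control replicate 5 was the highest goat for miR-106b and the lowest control for miR-93 and miR-25.

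In the miR-106a cluster, bta-miR-363, which has the seed of miR-25, was the most abundant. Controls held 76.6, 47.9, 136.8, 54.98 and 57.8 normalised reads, and feed-deprived goats ran from 67.9 through 77.9 to 155.6. Control replicate 3 and feed-deprived replicates 1 and 4 stood above the rest, at 135.3 or more, and the other 8 goats lay at 78.1 or below. The means were 74.8 ± 36.2 (SD, n = 5 controls) and 97.8 ± 37.7 (SD, n = 6 feed-deprived goats), a log2 fold change of 0.41 with a standard error of 0.313 (adjusted p = 0.736 in limma), with an interval of 0.834-fold to 2.12-fold. It was 0.65 without control replicate 3 and 0.26 without feed-deprived replicate 4. Per library it had 36 to 223 reads, so counting error is part of its spread. The exact 95% counting interval of control replicate 3, at 113.6 to 163.4 normalised reads, did not meet that of control replicate 1, at 58.4 to 98.5.

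bta-miR-20b, of the miR-17 seed family, held 40.8, 18.6, 17.9, 17.2 and 20.95 normalised reads in controls, and ran from 15.7 through 28.7 to 41.1 after feed deprivation. Control replicate 1 was as high as the highest feed-deprived goats, and the other 4 controls were at 20.95 or below. Of the feed-deprived goats 5 lay above these 4 controls, and replicate 5 was the lowest of all. The means were 23.1 ± 10.00 (SD, n = 5 controls) and 29.4 ± 9.86 (SD, n = 6 feed-deprived goats). The log2 fold change was 0.34 with a standard error of 0.314 (adjusted p = 0.7998 in limma), with an interval of 0.793-fold to 2.03-fold. It was 0.56 without control replicate 1.

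bta-miR-106a, of the same family, held 20.4, 13.3, 8.97, 6.47 and 13.4 normalised reads in controls, from 6 to 16 reads per library. Feed-deprived replicates 1 to 6 held 35.2, 33.5, 10.4, 25.4, 10.8 and 11.3, from 10 to 58 reads. Feed-deprived replicates 1, 2 and 4 lay above every control, and the other 3 lay within the control range. The means were 12.5 ± 5.31 (SD, n = 5 controls) and 21.1 ± 11.7 (SD, n = 6 feed-deprived goats). Its log2 fold change, 0.62 with a standard error of 0.414 (adjusted p = 0.649 in limma), was the largest among the tested members, and its interval, 0.829-fold to 2.85-fold, the widest. It was 0.43 without control replicate 4 and 0.44 without feed-deprived replicate 1. miR-106a differs by few bases from miR-17-5p, and how many mismatches the authors' counting allowed is not given in the sources used here, so reads of the 2 could be shared. miR-106a stood at 0.75% to 2.61% of miR-17-5p within a library.

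bta-miR-18b, the scarcest member, held 0 to 16 reads per library. Controls had 8.93, 0, 10.1, 6.47 and 13.4 normalised reads and feed-deprived goats 3.49 to 13.6, with a median of 9.46. The 0 of control replicate 2 corresponds to a limit of 3.99 normalised reads at 3 reads, and its exact 95% counting interval reaches 4.91. Both are above the 3.49 of feed-deprived replicate 6. The means were 7.78 ± 5.02 (SD, n = 5 controls) and 9.22 ± 3.32 (SD, n = 6 feed-deprived goats). Fitted with no filter, its log2 fold change was 0.56 with a standard error of 0.584 (adjusted p = 0.847 in limma), and without control replicate 2 it was -0.11.

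The 2 clusters had log2 differences of unlike size. The summed level of the miR-106b cluster was 43285 ± 5497 normalised reads (SD, n = 5 controls) and 42937 ± 5623 (SD, n = 6 feed-deprived goats), a log2 difference of -0.01. That of the miR-106a cluster was 118 ± 40.7 and 158 ± 53.7, a log2 difference of 0.41. Controls had 146.7, 79.8, 173.8, 85.2 and 105.6, and feed-deprived goats ran from 105.2 through 139.7 to 231.9, so the groups overlapped. The ratio of the first sum to the second, on the log2 scale, was 8.57 ± 0.574 (SD, n = 5 controls) and 8.15 ± 0.519 (SD, n = 6 feed-deprived goats), a difference of -0.42 that was smaller than the spread between goats in either group. Leaving out 1 goat moved it between -0.57 (without control replicate 3) and -0.26 (without control replicate 2). With library totals as the scaling, the log2 differences of the 2 sums were 0.15 and 0.58. That of the ratio stayed at -0.42, since scaling cancels in it. Since the sums and the ratio are scores over chosen members, they were not tested. With miR-92b counted in the miR-106a cluster, its sum was 14321 ± 3904 and 12678 ± 2571 normalised reads, a log2 difference of -0.16, and the log2 ratio of the clusters differed by 0.14. miR-19b and miR-92a were counted in none of these sums.

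The miR-17-92 cluster itself gives the setting for these values. All 7 of its miRNAs had positive log2 fold changes, 6 of them with upper-quartile factors or without control replicate 2 or 4, and the median was 0.31. In limma, edgeR and DESeq2 alike 0 of 7 passed, and 2 had an unadjusted p under 0.05, where 11.7% of all tested miRNAs did in limma. That number was 0 with upper-quartile factors, 1 without control replicate 3 and 5 without control replicate 5. The largest belonged to miR-20a, at 0.58 (95% interval 0.13 to 1.03, limma adjusted p = 0.289), and miR-17-5p, at 0.54 (0.08 to 0.99, limma adjusted p = 0.342). miR-17-3p had 0.43, miR-19a 0.31, miR-92a 0.25, miR-19b 0.19 and miR-18a 0.12. In other mammals the miR-106a cluster also encodes copies of miR-19b and miR-92a, so reads of these 2 mature miRNAs cannot be assigned to 1 locus. Whether the response of the paralogs differs from that of miR-17-92 was not tested.

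**Figure D2:**
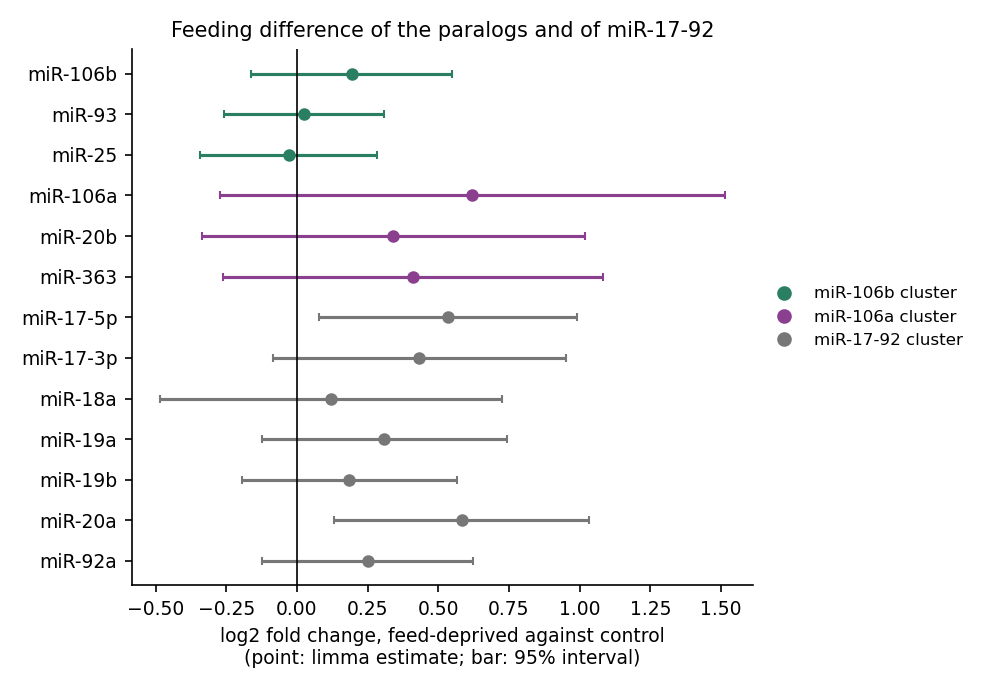
Log2 fold changes of feed-deprived against control goats (points, limma) with 95% intervals (bars) for the 6 tested paralogs and the 7 miRNAs of miR-17-92. All 6 paralog intervals include 0, those of miR-93, miR-25 and miR-106b being narrow and that of miR-106a, at -0.27 to 1.51, the widest; the intervals of miR-17-5p and miR-20a lie above 0 before adjustment over all miRNAs.

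Seen by seed, the paralogs supplied most of the miR-17 family and a large part of the miR-25 family. miR-93 alone held 79.8% ± 3.83 of the family's normalised reads (SD, n = 5 controls) and 75.1% ± 4.18 (SD, n = 6 feed-deprived goats). miR-106b added 8.81% ± 2.04 and 9.20% ± 0.970. miR-17-5p and miR-20a, from miR-17-92, held 11.2% ± 2.13 and 15.3% ± 3.77 together, and miR-20b and miR-106a only 0.267% ± 0.119 and 0.345% ± 0.140. The share of miR-93 was lowest in feed-deprived replicates 1 and 4, at 69.5% and 70.8%, and highest in control replicate 2, at 82.8%, and the groups overlapped. The level of the whole family was 13585 ± 1168 and 14692 ± 1485 normalised reads.

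In the miR-25 family the reads were divided between clusters. miR-25 held 39.8% ± 1.88 (SD, n = 5 controls) and 36.98% ± 3.67 (SD, n = 6 feed-deprived goats), and miR-92a held 41.9% ± 1.79 and 47.3% ± 4.86. miR-92b had 17.9% ± 3.12 and 15.3% ± 3.66, while miR-363 had 0.0977% ± 0.0484 and 0.119% ± 0.0459. Feed-deprived replicate 1 stood apart with 30.7% in miR-25 and 55.3% in miR-92a, and the groups overlapped for both shares. miR-92b was counted with neither cluster, since the locus of its reads is not known. With miR-92b counted in the miR-106a cluster, that cluster's share of the family was 13.7% to 22.4% in the controls and 12.2% to 22.4% in the feed-deprived goats. Of the small miR-18 family, miR-18b made up 0 to 5.51%, the rest being miR-18a. Whether reads of miR-18a were counted as miR-18b was not tested.

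**Figure D3:**
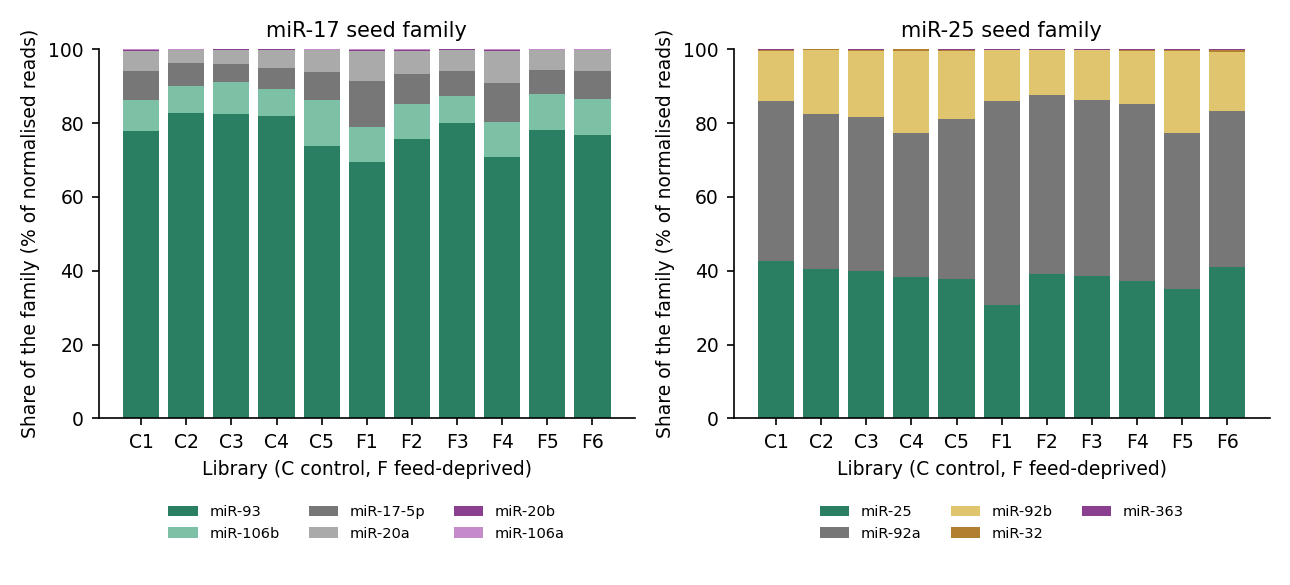
Share of each miRNA in the normalised reads of the miR-17 seed family (left) and the miR-25 seed family (right), 1 bar per library, controls C1 to C5 and feed-deprived goats F1 to F6. Dark green, miR-93 on the left and miR-25 on the right, fills 69.5% to 82.8% and 30.7% to 42.6% of the bars, and the purple shares of the miR-106a cluster are barely visible.

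Neighbours within the miR-106b cluster did not keep a fixed proportion across goats. miR-25 and miR-93 did so most closely, at 2.49 to 3.58 reads of miR-25 for each of miR-93. The ratio of miR-93 to miR-106b ran from 6.01 to 11.5, and that of miR-25 to miR-106b from 15.1 in control replicate 5 to 41.3 in control replicate 2, whereas the feed-deprived goats lay between 19.7 and 29.9. In the miR-106a cluster, miR-363 had 1.88 to 7.63 reads for each of miR-20b, the highest in control replicate 3, and miR-20b had 0.948 to 2.67 for each of miR-106a. The reads behind the ratios of this cluster are few: that of 2.67, in control replicate 4, rests on 16 reads of miR-20b and 6 of miR-106a. Counting error is part of their spread, and how large a part was not tested. All ratios given here overlapped between the groups.

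Correlations of log2 levels over the 11 goats were computed for all 21 pairs of members, with two-sided permutation tests. Only miR-106a and miR-20b passed after adjustment over the 21 in Pearson's r, and 0 pairs did in Spearman's rho, where 2 had an unadjusted permutation p under 0.05. Their r was 0.85 (permutation p = 0.00136, adjusted 0.0286) and their rho 0.75 (permutation p = 0.00971, adjusted 0.204). Without feed-deprived replicates 1 and 2, the goats farthest from the median of miR-106a, r was 0.85, and within the 6 feed-deprived goats it was 0.85. Leaving out 1 goat kept r at 0.82 or more, but the adjusted permutation p rose to as much as 0.0995 (without control replicate 4) and passed in 2 of 11 such fits. Both miRNAs rest on few reads. Within a library miR-20b stood at 2.14% to 5.58% of miR-20a, and miR-106a at 0.75% to 2.61% of miR-17-5p. Whether reads shared with these more abundant miRNAs have a part in the correlation was not tested.

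miR-93 and miR-25 had an r of 0.66 (permutation p = 0.0278, adjusted 0.195) and a rho of 0.63 (permutation p = 0.0443, adjusted 0.375). Without feed-deprived replicate 3 and control replicate 4, r was 0.53, and within the feed-deprived goats it was 0.76. Without control replicate 2 it was 0.82 and passed (adjusted permutation p = 0.0454). miR-106b and miR-25, of the same transcript, had a negative r of -0.56 (permutation p = 0.0702, adjusted 0.368) and a rho of -0.60 (permutation p = 0.0572, adjusted 0.375). Without both control replicates 2 and 5 r was -0.10, so the relation rested on those goats, and within the feed-deprived goats it was 0.08. With 1 goat left out r stayed between -0.40 and -0.80, and without feed-deprived replicate 2 it passed (adjusted permutation p = 0.0487). With TMM factors r was -0.48, and with library totals as the scaling it was 0.28. The 9 pairs within a cluster ran from -0.56 to 0.85, with a median of 0.41. The 12 pairs across clusters ran from -0.35 to 0.71, with a median of 0.03, so these ranges overlapped. The difference between the medians was not tested. The 0.71 belonged to miR-106b and miR-18b (permutation p = 0.0267, adjusted 0.195), with a rho of 0.41. Without control replicates 2 and 5 their r was -0.006, and miR-18b had 0 reads in control replicate 2.

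**Figure D4:**
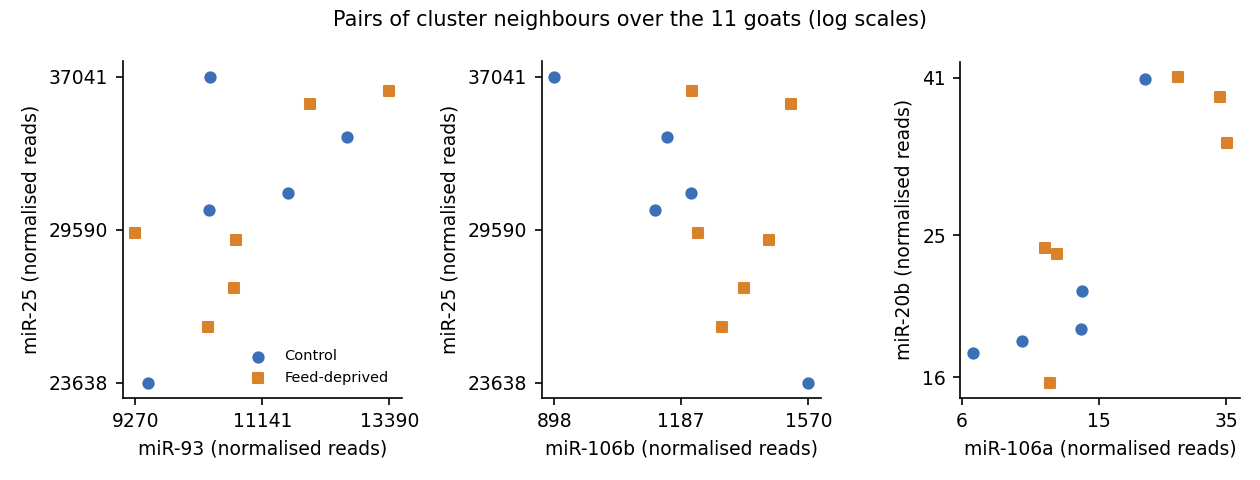
Normalised reads (log2-spaced axes, ticks at the lowest, middle and highest value) of miR-25 against miR-93, miR-25 against miR-106b and miR-20b against miR-106a in the 11 goats, circles for controls and squares for feed-deprived goats. In the middle panel the 2 outer circles are control replicates 2 and 5, and in the right panel 4 goats, 1 control and 3 feed-deprived, lie high in both miRNAs.

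For each member the 2 most similar of 354 other tested miRNAs were those with the highest Pearson r of log2 levels over the 11 libraries, a choice by rank that carries no test. For miR-106b they were miR-452 (0.88) and miR-19a (0.85), and for miR-93 miR-2285as (0.84) and miR-181b (0.84). For miR-25 they were miR-151-3p (0.91) and miR-1468 (0.91). miR-106a was most like miR-6119-5p (0.83) and miR-17-5p (0.80), and miR-20b most like miR-380-3p (0.82) and miR-410 (0.80). miR-18b led to let-7i (0.82) and miR-17-3p (0.77), and miR-363 to miR-484 (0.89) and miR-411c-5p (0.81). The libraries share their scaling factors across miRNAs, and the median r over the 354 lay between -0.05 and 0.03 for the 7 members.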

How the data were processed

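Small RNA libraries of 11 goats were used, grouped by the treatment in the labels. Replicates were numbered in accession order and pair nothing. Per the labels' protocols, a TruSeq kit for small RNA was used and reads were single; no source used here states the trimming, aligner, miRNA database or genome build. The values are the authors' deposited signal per miRNA, under bovine names, so goat miRNAs with other sequences may be undercounted. In every library 100% of the non-zero values equalled a whole number of steps of the lowest one, within 0.001 read, so whole reads were recovered. Reads carry no molecular identifier: counting intervals (exact Poisson, 95%) and floors (3 reads) cover counting error only.

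Of the miRNAs listed in all libraries, 360 passed edgeR's filterByExpr (minimum count 10). log2(signal + 1) was compared with limma 3.58.1 in R 4.3.3 (variance trend, robust, two-sided; threshold 0.05). Fold changes on this scale understate the change of scarce miRNAs. Alternatives were edgeR 4.0.16, DESeq2 1.42.0, voom, pseudocounts 0.5 and 5, other scalings and filters, and each library left out. Correlations used 100000 permutations. The fit was tested on simulated data with TMM factors and changes larger than that of any member. It therefore does not show how well changes of the members' size are found. The text names every member, the miR-17-92 miRNAs, those that share a seed with a member, and for each member the 2 most correlated miRNAs. Members and lists were chosen with earlier results of these data known. Seed families come from general knowledge, since no sequence table was used here.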

Additional observations from a re-analysis of the deposited data

Results flagged for a closer look

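In each group, 25 miRNA levels and ratios were searched for a goat lying apart from its group, 50 sets in all. It was found in 6, where chance would give about 1 in 20. Some sets share values, such as the level of miR-20b and the ratio of miR-363 to miR-20b. The number found can therefore not be weighed against that rate. For miR-20b, control replicate 1 had 40.8 normalised reads while the remaining controls had 17.2 to 20.95. The ratio of miR-93 to miR-106b was 11.02 in feed-deprived replicate 3, and 7.44 to 7.93 in the remaining 5. The ratio of miR-363 to miR-20b was 7.63 in control replicate 3, and 1.88 to 3.19 in the remaining controls. Of miR-17-92, control replicate 5 was high in miR-19a, with 641 normalised reads where the others had 298 to 376, and in miR-19b, with 4555 where they had 2381 to 2733. The lowest feed-deprived goat in miR-19a, replicate 5, had 422, and the others had 486 to 518.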

How the results depend on the processing

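The 2 groups were different goats, with 1 library per goat, so there were no pairs to analyse. In all 22 alternatives 0 members were called, with limma, edgeR or DESeq2 adjusted p-values of 0.480 to 0.999 over 133 refitted member values, of which 9 changed sign. At a mean of 10 CPM or more only 3 members were tested, miR-106b, miR-93 and miR-25, so the miR-106a cluster could not be called there. miR-93 was at -0.16 with upper-quartile factors and at -0.033 (without feed-deprived replicate 3) to 0.080 with 1 goat left out. miR-25 was at 0.13 with library totals and at -0.13 to 0.036 (without control replicate 2) with 1 goat left out. miR-18b was at -0.11 (without control replicate 2) to 0.75 with 1 control left out. With upper-quartile factors the median over all miRNAs was -0.17, and with library totals it was 0.16; relative to those medians miR-93 stood at 0.02 in both, and miR-25 at -0.04 and -0.03. The number of miRNAs called, 3 in the reported fit, was 8 with library totals, 9 in DESeq2, 0 at a mean of 10 CPM or more (23 at an unadjusted p under 0.05 in limma), and 0 to 5 with 1 goat left out. The number of correlated pairs was 1 with TMM factors or library totals and 0 to 2 with 1 goat left out; these checks were chosen after seeing the data, as was counting miR-92b in the miR-106a cluster, which moved that cluster's log2 difference from 0.41 to -0.16 and the log2 ratio of the clusters from -0.42 to 0.14. The correlation of miR-106b and miR-25 was 0.28 with library totals. The causes were not tested. miR-106a rested on 6 to 58 reads per library, miR-20b on 14 to 55 and miR-363 on 36 to 223, which limits their precision.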
